A study of Mus musculus with 6 samples.

Results

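A set of 7 genes, of 51826 in the count table, is described here in mouse ovary: Tmem170b, Fggy, Sertad2, Nktr, Rassf2, Selenoi and Apol6. They were chosen from the measured values by a 2-fold rule with 2 parts. Every library of both ovarian hyperstimulation syndrome (OHSS) groups lay on the same side of both COH libraries. Both OHSS group means of CPM (each library's counts rescaled so that libraries are comparable) also differed from the COH mean by 2-fold or more. Bulk RNA was sequenced from whole ovaries of ICR mice, an outbred strain, in 3 groups of 2 libraries. The reference group is labelled COH, a name that is not spelled out, the next was the OHSS model, and the last was the OHSS model given nintedanib (bibf1120), a kinase inhibitor that blocks the receptors of vascular endothelial, platelet-derived and fibroblast growth factors. Both OHSS groups were set against the same pair of COH libraries, so the 2 comparisons share their reference and a chance low or high value in COH would move both alike. The labels give no age, dose, time or hormone schedule and do not say whether replicates are different animals. The p-values therefore measure the spread between these samples alone, and that spread may be technical.

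In ovarian hyperstimulation, gonadotropin drives many follicles to grow and luteinize together, and vessels become leaky through vascular endothelial growth factor. Granulosa and theca cells then switch to heavy steroid output, which draws on membrane lipid, cholesterol and energy metabolism. The 7 genes are not a known pathway. Tmem170b encodes a small multi-pass membrane protein described as a brake on canonical Wnt signalling, and Fggy a kinase of ribulose, a pentose sugar. Sertad2, also called Trip-Br2, encodes a co-regulator of E2F transcription that restrains fat breakdown in adipocytes. Nktr encodes a large cyclophilin with a tail rich in serine and arginine, Rassf2 an adaptor with a Ras association domain that binds Mst kinases, Selenoi the selenoprotein that makes phosphatidylethanolamine in the last step of the ethanolamine branch of the Kennedy pathway, and Apol6 an intracellular apolipoprotein L.

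Total counts ran from 28498435 to 34716751 per library. The filter on low counts kept 19027 genes, all 7 among them, and 507 of these met the 2-fold rule (2.66% of genes tested), 406 above COH (2.13%) and 101 below (0.531%). The 7 genes are a selection from these and do not stand for them. By their choice, COH overlapped with neither OHSS group for 7 of 7, as was so of OHSS for 44.1% and of OHSS with nintedanib for 45.0% of all genes. Just inside the threshold, among genes with a mean of at least 5 CPM, lay Mro, 2.03-fold above COH in OHSS, and Mgll, 2.02-fold below COH in OHSS. Just outside lay Inhba, 1.996-fold above COH in OHSS, and Gimap4, 1.99-fold below COH with nintedanib. The markers of granulosa cells (8 of 8 tested), theca and stroma (7 of 7) and oocytes (8 of 8) were above 0 in all 6 libraries, which bears on the ovary label. Some sums over marker lists moved as well. The 8 granulosa markers summed to 2945 to 2959 CPM in COH, 3203 to 3205 CPM in OHSS and 4810 to 5008 CPM with nintedanib. These sums lay above COH in all 4 libraries, and 6 of the 8 had a higher mean than COH in both OHSS groups. The 8 endothelial markers summed to 635 to 642 CPM in COH, 514 to 559 CPM in OHSS and 671 to 697 CPM with nintedanib. Of these 8, 7 had a lower mean than COH in OHSS and 2 with nintedanib. The 7 theca and stroma markers summed to 3212 to 3640 CPM in COH, 4177 to 6390 CPM in OHSS and 4465 to 6070 CPM with nintedanib, above COH in all 4 libraries. The list itself was split, with a higher mean than COH for 4 of the 7 in OHSS and 3 with nintedanib (median log2 fold changes 0.12 and -0.06). The 5 tested erythroid markers summed to 218 to 219 CPM in COH, 60.4 to 173 CPM in OHSS and 84.0 to 156 CPM with nintedanib. The 13 mitochondrial transcripts summed to 49735 to 58419 CPM, 69702 to 71189 CPM and 54331 to 57084 CPM in the same order, above COH in OHSS alone and inside the range of COH with nintedanib. With nintedanib 7 of the 13 had a higher mean than COH and 6 a lower one. Of the 13, mt-Atp6 alone met the 2-fold rule, at 802 and 997 CPM in COH, 5454 and 5335 CPM in OHSS, and 3500 and 4403 CPM with nintedanib. The part of these lists in the differences of the 7 genes was not tested.

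Promoter sequence is shown for 4 of the genes, 3 that lay above COH and 1 that lay below, so that their start regions can be compared base by base. RefSeq promoter windows on mouse build GRCm38.p6 were matched by symbol for 6 of the 7 genes, in 8 windows since Fggy and Sertad2 have 2 starts each. Each line gives the 100 bases that hold the most whole motif matches within the 250 bases before the start, 5′ to 3′ on the gene's strand, and capitals mark the GC box (GGGCGG), the box named after its letters CCAAT or the core of a cyclic AMP response element (TGACG), each on either strand.
Tmem170b, chr13:41605662-41605761, plus strand: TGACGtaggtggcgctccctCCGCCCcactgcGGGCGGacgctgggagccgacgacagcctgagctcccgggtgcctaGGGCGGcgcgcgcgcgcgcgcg
Fggy, chr4:95557407-95557506, plus strand: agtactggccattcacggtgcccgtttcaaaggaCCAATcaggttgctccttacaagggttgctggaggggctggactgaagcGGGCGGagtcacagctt
Selenoi, chr5:30232481-30232580, plus strand: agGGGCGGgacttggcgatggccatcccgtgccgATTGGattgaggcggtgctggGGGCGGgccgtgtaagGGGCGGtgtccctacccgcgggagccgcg
Sertad2, chr11:20543059-20543158, plus strand: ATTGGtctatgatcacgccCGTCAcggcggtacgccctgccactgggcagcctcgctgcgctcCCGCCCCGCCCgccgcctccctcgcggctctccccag
The Tmem170b stretch holds 3 GC boxes and 1 cyclic AMP core. The Fggy stretch holds 1 CCAAT box and 1 GC box, the Selenoi stretch 3 GC boxes and 1 CCAAT box, and the Sertad2 stretch 2 GC boxes, 1 CCAAT box and 1 cyclic AMP core.

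Over the 250 bases before each start, searched on both strands, the GC box was found in 6 of the 8 windows of these genes and in 53.0% of the 15853 windows of genes tested. The CCAAT box was found in 4 of the 8 and in 34.6% of those windows, and the cyclic AMP core in 3 of the 8 and in 24.0%. The motif of the steroidogenic factor SF-1 (AAGGTCA) was found in 1 window, that of Selenoi, and in 3.19% of windows of genes tested. The TEAD site (GGAATG) was found in 1 window, that of Rassf2, and in 11.03%. No match was found in the 8 windows to the AP-1 site (TGACTCA, 3.46% of windows of genes tested), the E-box (CACGTG, 7.75%), the TATA box (TATAAA, 7.03%), the TCF site (CTTTGAT, 2.33%) or the interferon response core (GAAANNGAAA, 2.73%). The share of G and C was 80.4% in the Tmem170b window, 68.4% in the Sertad2 window shown, 58.4% in the Selenoi window and 53.2% in the Fggy window shown, beside a median of 58.8% over windows of genes tested. Each of the 3 kinds of element in the Sertad2 window shown was also found in a window of some gene above COH, though no single such window held all 3. A match is a run of letters and not a measured binding site.

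Tmem170b stood apart from the other 6 in the size of its difference. Tmem170b (ENSMUSG00000087370, chromosome 13) was at 1.12 and 1.296 CPM in COH, 42.6 and 49.0 CPM in OHSS, and 35.7 and 39.1 CPM in OHSS with nintedanib. The COH libraries were low and all 4 OHSS libraries high, with a 27.5-fold gap between the nearest libraries. These levels rest on 40 and 37 counts in COH and on 1028 to 1485 counts in each OHSS library. The mean was 37.8-fold above COH in OHSS, a log2 fold change of 5.24, and 30.9-fold above with nintedanib, a log2 fold change of 4.95. In bulk RNA, more cells of a type and more RNA per cell cannot be told apart, here and for the genes that follow. By the smaller of its 2 fold changes Tmem170b ranked 4 of the 169 genes that met the rule with a mean of at least 5 CPM.

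The closest relative of Tmem170b, listed as Tmem170, encodes a membrane protein that shapes the endoplasmic reticulum and nuclear envelope. Tmem170 was at 19.1 and 19.1 CPM in COH, 16.2 and 21.1 CPM in OHSS, and 20.95 and 17.3 CPM with nintedanib. Its groups overlapped, with log2 fold changes of -0.04 and 0.00. Of 18 Wnt receptors and feedback genes, 16 had a higher mean in OHSS than in COH (median log2 fold change 0.23) and 8 with nintedanib (median -0.15). Axin2, a feedback target of Wnt signalling, was at 29.5 and 32.4 CPM in COH, 38.5 and 28.3 CPM in OHSS, and 20.9 and 21.9 CPM with nintedanib. Its OHSS libraries lay on both sides of COH and its nintedanib libraries below it (edgeR's quasi-likelihood test, Benjamini-Hochberg adjusted p = 0.886 and 0.494). By the same test 0 of the 18 were called in either comparison, beside 0.0105% of all genes called in OHSS against COH and 0.0263% with nintedanib against COH. At an unadjusted p below 0.05 there were 4 and 3 of the 18, beside 8.82% and 9.70% of all genes. DESeq2 called 0 and 1, beside 360 and 449 of all 19027 genes tested, and limma voom 0 and 0, beside 0 and 2.

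**Figure D1:**
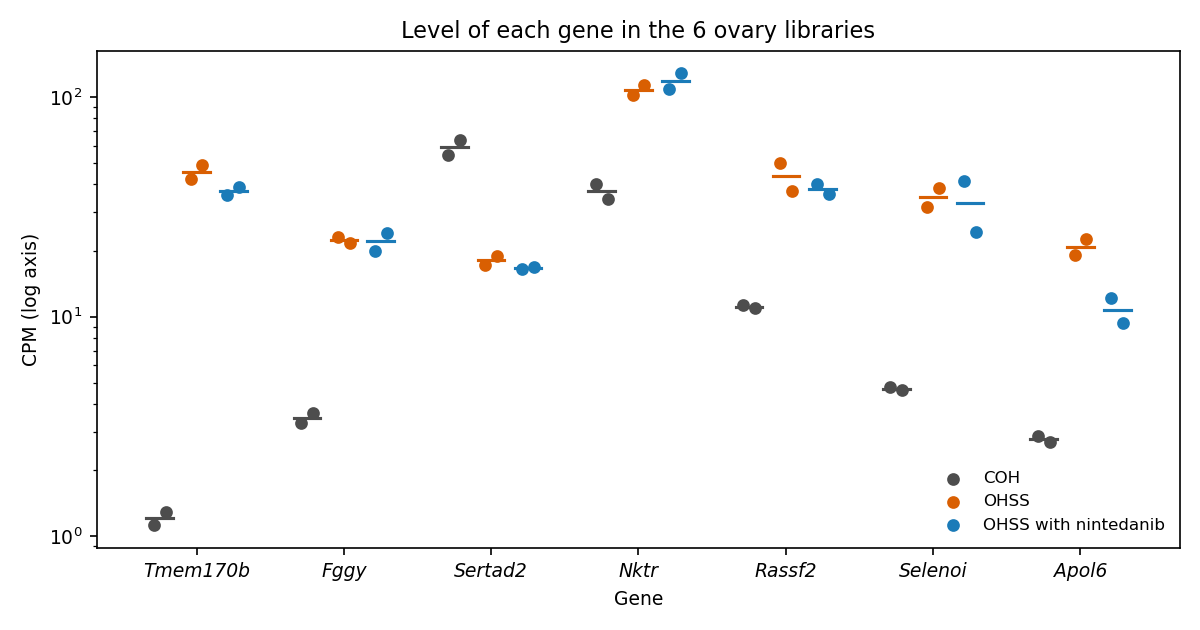
Level of each of the 7 genes in each of the 6 libraries, in CPM on a log axis, by group, with 1 point per library. In 6 genes all 4 OHSS libraries lie above both COH libraries, and in Sertad2 all 4 lie below.

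Fggy, which phosphorylates ribulose, had almost the same mean in both OHSS groups. Fggy (ENSMUSG00000028573, chromosome 4) was at 3.29 and 3.64 CPM in COH, 23.1 and 21.6 CPM in OHSS, and 20.01 and 24.0 CPM with nintedanib. The COH pair was low, and the 2 OHSS groups covered the same range. The mean was 6.45-fold above COH in OHSS (log2 fold change 2.69) and 6.35-fold above with nintedanib (2.67). Counts ran from 104 to 117 in the COH libraries and from 577 to 770 in the others.

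The other 4 carbohydrate kinases of the FGGY family differed less. Shpk, a sedoheptulose kinase that feeds the pentose phosphate pathway, was at 5.54 and 4.55 CPM in COH, 9.52 and 9.90 CPM in OHSS, and 6.69 and 6.61 CPM with nintedanib. Its log2 fold change was 0.94 in OHSS (adjusted p = 0.461) and 0.40 with nintedanib (adjusted p = 0.553), by edgeR's quasi-likelihood test. Glycerol kinase Gk differed by 0.59 and 0.10, Gk5 by 0.10 and 0.30 and the xylulose kinase Xylb by -0.02 and 0.24. Shpk and Gk were the 2 of 4 with an unadjusted p below 0.05 in OHSS against COH, and 0 of 4 reached it with nintedanib. edgeR and limma voom called 0 of the 4 in either comparison, and DESeq2 called 1, Shpk, in OHSS and 0 with nintedanib.

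Sertad2, the E2F co-regulator, was the single gene of the 7 below COH. Sertad2 (ENSMUSG00000049800, chromosome 11) was at 54.5 and 63.9 CPM in COH, 17.2 and 18.9 CPM in OHSS, and 16.4 and 16.9 CPM with nintedanib. The 4 OHSS libraries lay close together and well under both COH libraries. The COH mean was 3.28-fold that of OHSS (log2 fold change -1.71) and 3.55-fold that of OHSS with nintedanib (-1.83). Among genes with a mean of at least 5 CPM, 10 lay below COH by the rule and 159 above.

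Of the Sertad2 relatives, Sertad1, which partners Cdk4, was at 20.99 and 22.0 CPM in COH, 17.3 and 16.9 CPM in OHSS, and 15.1 and 14.9 CPM with nintedanib. Its 4 OHSS libraries lay below COH too, by -0.33 and -0.52 on the log2 scale, with adjusted p of 0.550 and 0.459 by edgeR's quasi-likelihood test. Sertad4 differed by -0.23 and -0.42, Cdca4 by -0.27 and -0.18, and Sertad3 by 0.18 and 0.08. None of these 4 was called by edgeR or limma voom, 1 of 4 had an unadjusted p below 0.05 in each comparison, and DESeq2 called 0 in OHSS and 1 with nintedanib. The 10 E2F and DP partners and their cell cycle kinases had medians of 0.00 and 0.04. Cdk4 among them differed by -0.27 and -0.39, and edgeR called 0 of the 10 in either comparison (0 and 1 at an unadjusted p below 0.05; DESeq2 and limma voom called 0).

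Nktr, the cyclophilin with a serine and arginine rich tail, had the smallest fold difference of the 6 genes above COH. Nktr (ENSMUSG00000032525, chromosome 9) was at 40.1 and 34.2 CPM in COH, 102.4 and 113.6 CPM in OHSS, and 108.8 and 128.2 CPM with nintedanib. The OHSS groups overlapped each other and neither reached down to COH. The mean was 2.91-fold above COH in OHSS (log2 fold change 1.54) and 3.19-fold above with nintedanib (1.67). The antisense gene E530011L22Rik overlaps exons of Nktr over 2182 bases, and the strand setting of the counting is not given, so reads of the pair cannot be told apart there. E530011L22Rik had 70 to 144 counts per library against 977 to 4112 for Nktr, and differed from COH by -0.31 and -0.49.

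The other 14 cyclophilins, which turn proline bonds in folding proteins, had medians of -0.11 and -0.06 (ranges -0.72 to 0.38 and -0.51 to 0.29). Ppib, the cyclophilin of the endoplasmic reticulum, was at 265.7 and 278.6 CPM in COH, 215.1 and 201.8 CPM in OHSS, and 229.3 and 231.7 CPM with nintedanib. Its 4 OHSS libraries lay below COH, by -0.38 and -0.24, with adjusted p of 0.521 and 0.512 by edgeR's quasi-likelihood test. edgeR and limma voom called 0 of the 14, with 2 and 1 at an unadjusted p below 0.05, and DESeq2 called 1, Ppib, in OHSS and 0 with nintedanib. Of 22 splicing genes of the SR and nuclear speckle kind, 18 had a higher mean than COH in OHSS and 19 with nintedanib, with a median of 0.17 in each, beside medians of 0.00 over all genes. Malat1, the speckle RNA, differed by 0.76 and 0.25, Luc7l2 by 0.48 and 0.41, Srrm2 by 0.41 and 0.35 and Pnisr by 0.33 and 0.51. edgeR and limma voom called 0 of the 22 in either comparison, 5 and 3 had an unadjusted p below 0.05, and DESeq2 called 1 and 0.

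Rassf2, the Ras association adaptor, varied most between the 2 OHSS libraries. Rassf2 (ENSMUSG00000027339, chromosome 2) was at 11.3 and 10.9 CPM in COH, 50.3 and 37.3 CPM in OHSS, and 40.4 and 36.2 CPM with nintedanib. The COH pair was low and alike, and the OHSS groups overlapped. The mean was 3.94-fold above COH in OHSS (log2 fold change 1.98) and 3.44-fold above with nintedanib (1.78). The 2 OHSS libraries differed by 0.43 on the log2 scale.

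The other 12 Rassf genes and Mst kinase partners had medians of 0.03 in OHSS (range -0.68 to 0.18) and 0.04 with nintedanib (range -0.27 to 0.60). Rassf4, the relative most different from COH with nintedanib, was at 16.1 and 17.0 CPM in COH, 16.6 and 17.5 CPM in OHSS, and 20.6 and 29.5 CPM with nintedanib. It differed by 0.04 in OHSS and by 0.60 with nintedanib (adjusted p = 0.965 and 0.494, edgeR's quasi-likelihood test). edgeR, DESeq2 and limma voom called 0 of the 12 in either comparison, with 0 and 1 at an unadjusted p below 0.05. Blood cells are known to carry Rassf2. The 8 macrophage markers summed to 457 and 511 CPM in COH, 457 and 347 CPM in OHSS and 304 and 251 CPM with nintedanib. Of these 8, 5 had a higher mean in OHSS than in COH and 1 with nintedanib (median log2 fold changes 0.03 and -0.17). The 10 lymphocyte markers summed to 8.57 and 11.9 CPM, 8.91 and 7.95 CPM, and 7.98 and 7.45 CPM, with a higher mean than COH for 1 and 2 of the 10. The 8 neutrophil markers summed to 14.5 and 16.6 CPM, 16.6 and 21.6 CPM, and 15.9 and 9.04 CPM, and 7 of the 8 had a higher mean in OHSS than in COH and 0 with nintedanib. The part of these cells in the Rassf2 difference was not tested.

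Selenoi, which makes phosphatidylethanolamine, had the widest spread between replicates of the 7. Selenoi (ENSMUSG00000075703, chromosome 5) was at 4.78 and 4.62 CPM in COH, 31.7 and 38.4 CPM in OHSS, and 41.3 and 24.2 CPM with nintedanib. The nintedanib libraries held both the highest and the lowest of the 4 OHSS values and differed by 0.77 on the log2 scale. The mean was 7.46-fold above COH in OHSS (log2 fold change 2.90) and 6.98-fold above with nintedanib (2.80). Without nintedanib replicate 1 the second log2 fold change was 2.36, and without nintedanib replicate 2 it was 3.14.

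The 13 other genes of phosphatidylethanolamine and phosphatidylcholine synthesis had medians of 0.05 and 0.01 (ranges -0.25 to 0.71 and -0.32 to 0.77). Pcyt2, which supplies the activated ethanolamine that Selenoi uses, differed by 0.64 in OHSS and 0.53 with nintedanib. Etnk1, an ethanolamine kinase before it, differed by 0.26 and 0.50. Etnk2, also an ethanolamine kinase, differed by 0.61 and -0.18, with its nintedanib libraries at 47.8 and 15.1 CPM. Cept1, which can carry out the same step as Selenoi, differed by -0.16 and -0.01. Chpt1, its choline counterpart, differed by 0.71 and 0.33. edgeR and limma voom called 0 of the 13 in either comparison, 1 had an unadjusted p below 0.05 in each, and DESeq2 called 0 and 1.

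Selenoi is itself a selenoprotein and a supplier of the plasmalogen pathway. The 22 selenoproteins and selenocysteine factors had medians of 0.03 and -0.07. Gpx4, which removes lipid peroxides, was at 384.9 and 374.2 CPM in COH, 331.6 and 286.5 CPM in OHSS, and 290.9 and 263.8 CPM with nintedanib, below COH in all 4 libraries (-0.30 and -0.45, adjusted p = 0.565 and 0.474, edgeR's quasi-likelihood test). Far1, which makes the fatty alcohol for plasmalogens, was at 88.5 and 50.4 CPM in COH, 229.5 and 366.9 CPM in OHSS, and 121.7 and 152.8 CPM with nintedanib. All 4 OHSS libraries of Far1 lay above COH, by 2.102 and 0.98, with adjusted p of 0.425 and 0.499. The 7 plasmalogen genes as a list had medians of 0.08 and 0.11. Of these 7, neither edgeR nor voom called any (0 of 7), 1 passed an unadjusted p of 0.05 in each comparison, and DESeq2 called 1 and 0. Of the 22, all of edgeR, DESeq2 and voom called 0, and 1 and 2 passed an unadjusted p of 0.05.

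**Figure D2:**
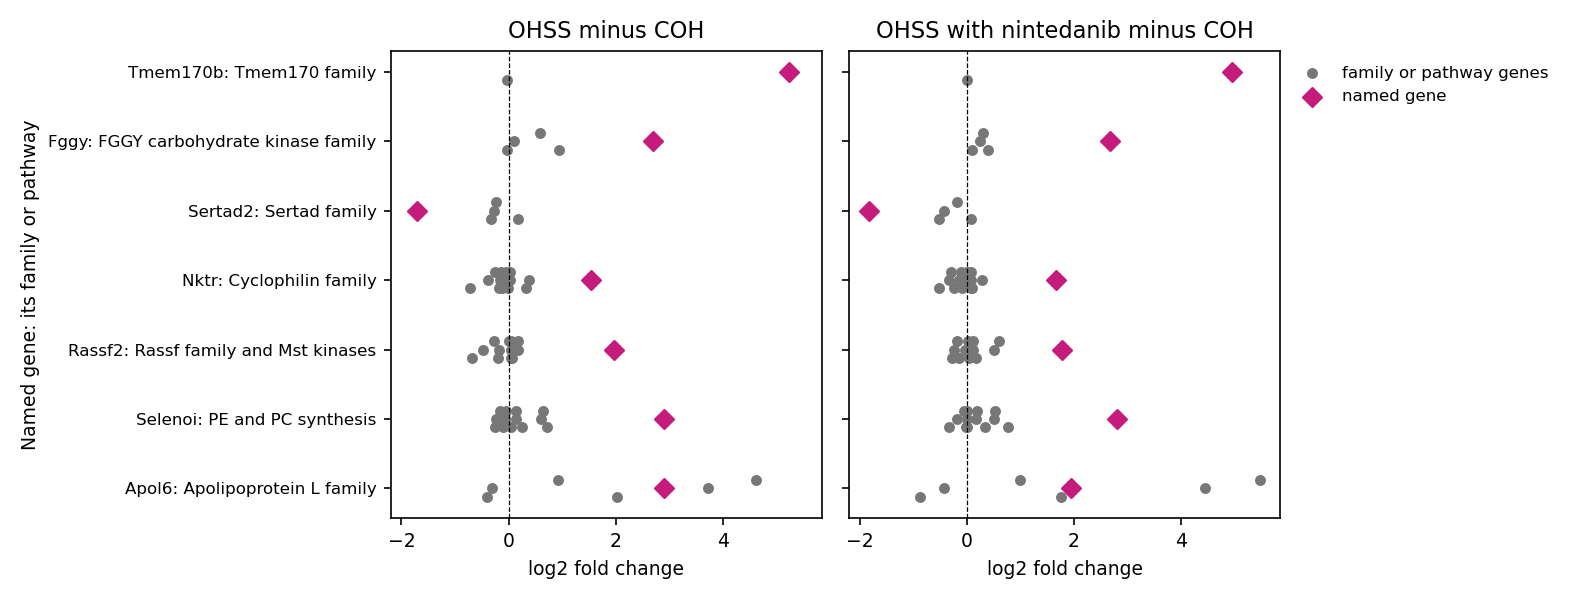
Log2 fold change against COH of each of the 7 genes (diamonds) and of the other tested genes of its family or pathway (circles), in OHSS on the left and OHSS with nintedanib on the right. The circles of the 6 lists outside the apolipoprotein L family all lie within 1 of 0.

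Apol6, the apolipoprotein L, was the gene whose level differed most between the 2 OHSS groups. Apol6 (ENSMUSG00000033576, chromosome 15) was at 2.87 and 2.70 CPM in COH, 19.0 and 22.6 CPM in OHSS, and 12.1 and 9.35 CPM with nintedanib. The 3 groups did not overlap, with the nintedanib libraries between COH and OHSS. The mean was 7.48-fold above COH in OHSS (log2 fold change 2.90) and 3.86-fold above with nintedanib (1.95). An exon of Apol6 overlaps Mb, the myoglobin gene, on the opposite strand, and Mb had 0 to 6 counts per library.

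Of the 13 other apolipoprotein L genes, 6 were tested, and their values spread more widely than those of the other families. Apol9a was at 0.39 and 0.67 CPM in COH, 24.4 and 1.55 CPM in OHSS, and 9.05 and 38.0 CPM with nintedanib. Apol9b was at 1.12 and 1.61 CPM in COH, 33.4 and 2.44 CPM in OHSS, and 15.3 and 44.1 CPM with nintedanib. Apol9a and Apol9b are close copies of each other, so their reads may have been split and both levels are uncertain. Both were above COH in all 4 OHSS libraries, yet far apart within each OHSS group (log2 fold changes 4.62 and 5.48 for Apol9a, 3.72 and 4.44 for Apol9b). Apol10b differed by 2.02 and 1.76 and Apol7e by 0.92 and 0.99, while Apol7b differed by -0.31 and -0.42 and Apold1, the endothelial relative, by -0.39 and -0.87. edgeR and limma voom called 0 of the 6 in either comparison, 3 and 4 had an unadjusted p below 0.05, and DESeq2 called 0 and 2.

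Human apolipoprotein L genes are known interferon targets, so Apol6 was set beside 14 interferon response genes. All 14 had a higher mean than COH in both OHSS groups, with medians of 3.76 and 4.89, and 13 of the 14 met the 2-fold rule themselves. Their summed level was 353.8 and 338.0 CPM in COH, 2135 and 531 CPM in OHSS, and 1334 and 4270 CPM with nintedanib. All 14 were lower in OHSS replicate 2 than in OHSS replicate 1, and lower in nintedanib replicate 1 than in nintedanib replicate 2. Apol9a and Apol9b showed that same order of libraries. Apol6 showed the reverse order in both groups, 19.0 then 22.6 CPM and 12.1 then 9.35 CPM, an order that rests on 2 libraries per group. The part of interferon in the Apol6 difference was not tested. edgeR and limma voom called 0 of the 14 in either comparison, 11 and 14 had an unadjusted p below 0.05, and DESeq2 called 8 and 12.

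**Figure D3:**
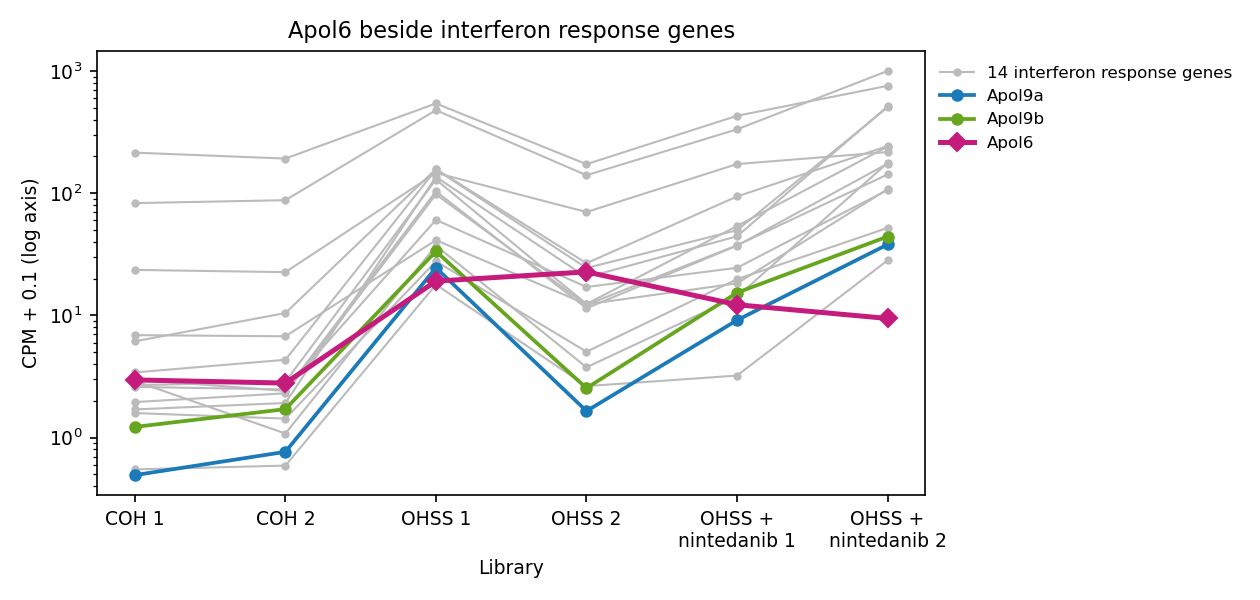
Levels of Apol6, Apol9a, Apol9b and 14 interferon response genes in the 6 libraries, in CPM plus 0.1 on a log axis, with 1 line per gene. Apol9a and Apol9b drop in OHSS replicate 2 and peak in nintedanib replicate 2 with the 14 genes, while Apol6 peaks in OHSS replicate 2 at 22.6 CPM.

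Across 6 lists (the Tmem170, FGGY kinase, Sertad, cyclophilin and Rassf families, and phosphatidylethanolamine and phosphatidylcholine synthesis), 48 of 48 tested genes lay within 1 of 0 on the log2 scale in both comparisons with COH, as did 86.0% of all genes tested. These 6 lists leave out the apolipoprotein L family, and with that family added 51 of 54 did. In the wider lists 1 gene each lay further out: Far1 of plasmalogen synthesis and the selenoprotein Gpx1 (2.23) in OHSS, and the E2F partner Tfdp2 (1.02) with nintedanib. Gpx1 and Tfdp2 were named after their values were seen, and each had 1 library far from the others, at 777 CPM for Gpx1 in OHSS replicate 1 and 10.96 CPM for Tfdp2 in COH replicate 2. The medians of the 48 were -0.03 and 0.01. By edgeR's quasi-likelihood test 0 of the 48 were called in either comparison, 6 and 4 had an unadjusted p below 0.05, limma voom called 0 and 0, and DESeq2 called 2 and 2. With the apolipoprotein L family added, 9 and 8 of the 54 had an unadjusted p below 0.05 by the edgeR test, and DESeq2 called 2 and 4. The 7 genes were chosen for their distance from COH and their relatives were not, so the gap between them is a description.

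**Figure D4:**
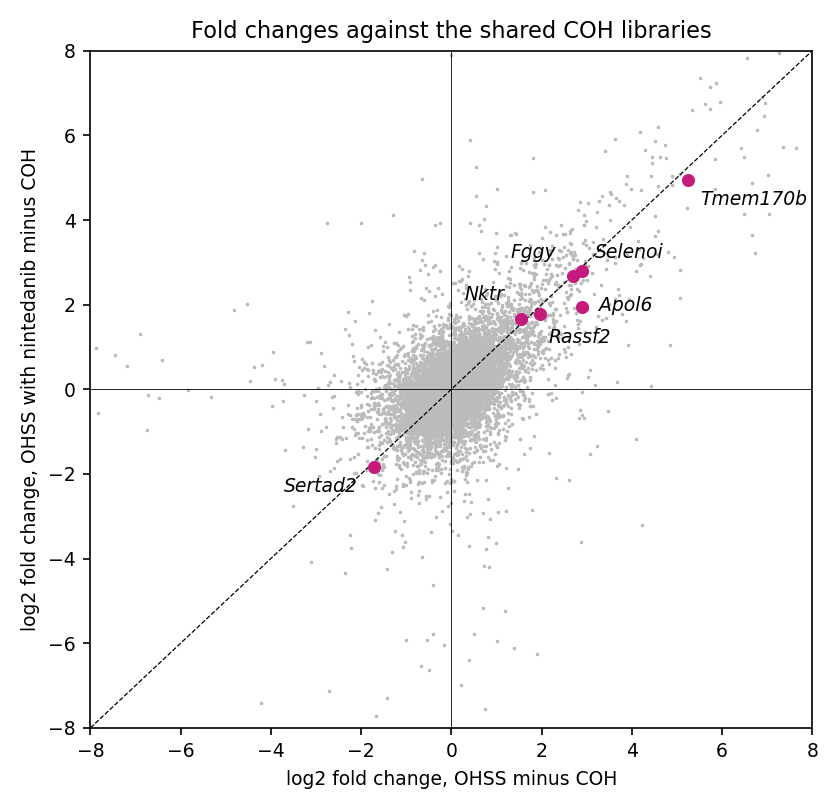
Log2 fold change of each gene tested in OHSS against COH (horizontal) and in OHSS with nintedanib against COH (vertical), with the 7 genes labelled and the dashed line marking equal values. Both axes stop at 8, which leaves out 10 genes, and both comparisons use the same COH libraries, which by itself draws points toward the dashed line.

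The difference between the 2 OHSS groups was tested. The rule did not use this difference itself, but it used both group means, so the calls and intervals depend on that choice and are no independent evidence. Of the 7, edgeR's quasi-likelihood test, Benjamini-Hochberg adjusted over all genes, called 0, beside 0.00526% of all genes. At an unadjusted p below 0.05 there was 1 of 7, Apol6, beside 7.42% of all genes. DESeq2 called 1, Apol6, beside 223 of all 19027 genes tested, and limma voom 0, beside 1 of all genes. The groups did not overlap for 3 of 7, Tmem170b, Sertad2 and Apol6, beside 36.2% of all genes, and nintedanib was the lower group in each of these 3, beside 16.9% of all genes that were lower without overlap.

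Apol6 had a nintedanib mean of 0.516 times that of OHSS, a log2 fold change of -0.95 (SE 0.200, 95% interval -1.46 to -0.45). Its unadjusted p was 0.00404 and its edgeR adjusted p 0.625, which ranked 115 by p among the genes tested. The DESeq2 adjusted p was 0.0145, and over all alternatives the adjusted p ran from 0.0145 to 0.881. Other sums moved between these 2 groups as well. The 8 granulosa markers summed to 3203 and 3205 CPM in OHSS and 5008 and 4810 CPM with nintedanib. The 8 endothelial markers summed to 514 and 559 CPM in OHSS and 671 and 697 CPM with nintedanib, with a higher mean for 8 of 8, 4 of them at an unadjusted p below 0.05 (edgeR called 0, DESeq2 2 and limma voom 0). The macrophage and neutrophil sums were lower with nintedanib as given above for Rassf2, with a lower mean for 7 of 8 and 8 of 8. The 13 mitochondrial transcripts had a lower mean with nintedanib for 13 of 13 (median log2 fold change -0.37). The 14 interferon response genes had a higher mean with nintedanib for 14 of 14 (median 0.97), though their sums overlapped between the groups. The part of these lists in the Apol6 difference was not tested.

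For the other 6 genes the interval of the nintedanib difference included 0. Tmem170b differed by -0.29 (95% interval -0.64 to 0.06, edgeR adjusted p = 0.706), with both nintedanib libraries under both OHSS libraries. Fggy differed by -0.02 (-0.42 to 0.37, adjusted p = 0.980), a range of 0.749-fold to 1.29-fold. Sertad2 differed by -0.12 (-0.45 to 0.22, adjusted p = 0.862). These limits hold for the spread of these libraries, and any difference inside them remains compatible with the values of 2 libraries per group. Nktr differed by 0.13 (-0.22 to 0.49, adjusted p = 0.845) and was the one gene of the 7 with a higher mean under nintedanib. Rassf2 differed by -0.19 (-0.63 to 0.24, adjusted p = 0.816). Selenoi, with its far apart nintedanib libraries, differed by -0.10 and had the widest interval (-0.78 to 0.58, adjusted p = 0.947), which spans 0.583-fold to 1.499-fold.

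**Figure D5:**
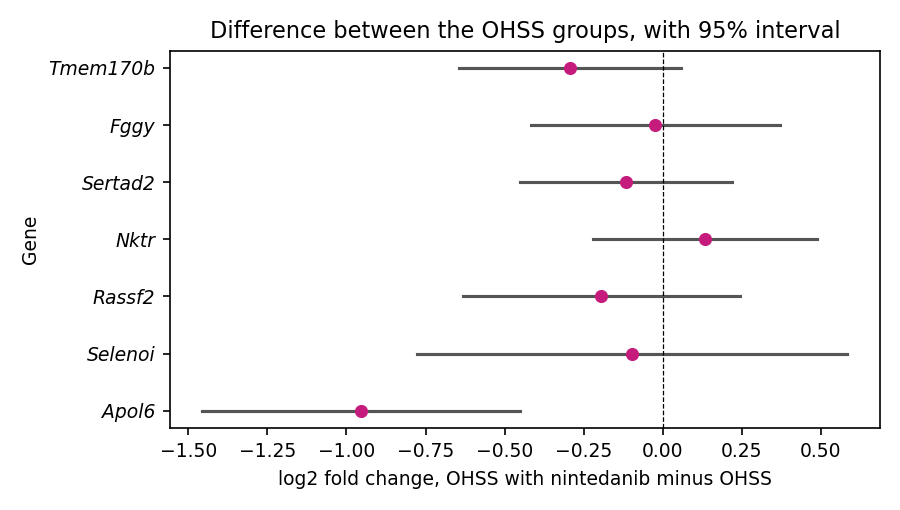
Log2 fold change of OHSS with nintedanib against OHSS for each of the 7 genes, with points for the edgeR estimate and bars for its 95% interval. Apol6 lies at -0.95 with an interval that does not reach 0, and the other 6 intervals include 0.

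The 7 genes also differed in the spread between replicates. Among the 169 genes that met the rule with a mean of at least 5 CPM, ordered from the smallest spread between libraries of a group, Tmem170b ranked 2, Sertad2 3, Nktr 4 and Fggy 5. Apol6 ranked 8, Rassf2 11 and Selenoi 22. The 7 were chosen from the values of these same libraries, so their ranks are a description. The first place went to Ak4, a mitochondrial adenylate kinase, at 1.60 and 1.61 CPM in COH, 14.7 and 13.8 CPM in OHSS, and 14.5 and 14.9 CPM with nintedanib.

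Ak4 also came out as one of the genes most like Tmem170b, Fggy and Nktr in its pattern. Likeness was measured as Pearson's r of log2 CPM over the 6 libraries among 11502 named genes, a description in which the libraries and the step from COH to OHSS are shared. Fggy (r = 0.997), Ak4 (0.997) and Parp4 (0.993) were nearest to Tmem170b, and Ak4 (0.998), Tmem170b (0.997) and Parp4 (0.995) to Fggy. Mrps25 (0.995), Pfdn5 (0.995) and Pcdh18 (0.991) were nearest to Sertad2, and Kdm3b (0.989), Ak4 (0.988) and Ufl1 (0.987) to Nktr. The likeness is in the shape alone, since Parp4 differed from COH by only 0.24 and 0.21 on the log2 scale and Kdm3b by 0.12 and 0.13. Nearest to Rassf2 were Htt (0.996), Slc35a3 (0.993) and Tomm40l (0.993), the last at log2 fold changes of 0.98 and 0.91. Nearest to Selenoi were Rtf1 (0.993), Hsd17b12 (0.989) and Greb1 (0.987). Hsd17b12, an enzyme of fatty acid elongation, was at 53.6 and 47.2 CPM in COH, 149.0 and 169.9 CPM in OHSS, and 158.0 and 106.0 CPM with nintedanib, and so shared the low nintedanib replicate 2 of Selenoi. Nearest to Apol6 were Cdc27 (0.986), Acss2 (0.985) and Chic1 (0.982), and Acss2, which makes acetyl-CoA from acetate, differed by 0.92 and 0.62.

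The genes next to the 7 on their chromosomes were looked up in GENCODE M21, to which 99.6% of the table's identifiers matched. Of the 14 nearest tested neighbours, 12 lay within 1 of 0 on the log2 scale in both comparisons with COH. Beside Tmem170b, Nedd9 differed by -0.47 and 0.84 and Hivep1 by 0.30 and 0.14. Beside Selenoi, Hadhb differed by 0.09 and -0.17, and Drc1, below 1.5 CPM in all libraries, by 1.84 and 0.63. Beside Apol6, 1110038F14Rik differed by -0.33 and -0.23 and Rbfox2 by -0.08 and 0.00. Beside Rassf2, Prnd differed by -1.15 and 0.51 with its 2 COH libraries at 6.44 and 0.315 CPM, and Slc23a2, a vitamin C carrier, by 0.57 and 0.17. The neighbours of Fggy (Hook1, 0.33 and 0.72), Sertad2 (Aftph, 0.10 and 0.32) and Nktr (Ss18l2, -0.36 and -0.50) differed by less than 1 too. edgeR called 0 of the 14 in either comparison, with 2 at an unadjusted p below 0.05 in each, and DESeq2 and limma voom called 0.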

How the data were processed

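The members and the gene lists were chosen with earlier results of these data known. The deposited table holds raw counts per gene, per the file headers, for 51826 Ensembl identifiers in 6 libraries, and deposited read summaries per library give reads, base quality and GC share. The submitters' processing notes list HISAT2 2.1.0, StringTie 1.3.3b, Trimmomatic 0.36 and build mm8 with no roles. The sources used here do not give the counting program, its use of strand or its handling of multiply mapped reads. Counts came to 144.2 to 148.0% of read pairs, so each pair seems to count as 2 reads, which makes counting error larger than the counts alone would give.

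Groups and replicate numbers came from the sample titles. In R 4.3.3, edgeR 4.0.16 removed low counts (filterByExpr, 19027 genes kept) and scaled the libraries by TMM. CPM is on the effective library size. A single edgeR fit of the 3 groups gave two-sided quasi-likelihood F tests (3 residual and 2.41 prior degrees of freedom), with Benjamini-Hochberg adjustment over all genes and calls below 0.05. The SE comes from the F statistic. The code was tested on simulated data. Values of the 7 genes against COH are given with no test, since they chose the genes. DESeq2 1.42.0, limma voom (limma 3.58.1), other scalings and filters, a replicate block, a fit of 2 groups and each library left out in turn were the alternatives.

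Named genes are the 7, tested members of their families, up to 4 members of other lists with the smallest p in a comparison, the 3 genes most correlated with each over the 6 libraries (log2 CPM, prior count 2, mean of at least 5 CPM), the nearest tested neighbour on each side and the genes at the edge of the rule. Copies were searched with BLAST 2.17.0 (at least 95% identity over 150 bases), which matched Nktr with its antisense gene.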

Additional observations from a re-analysis of the deposited data

How the results depend on the processing

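The 7 genes were chosen for lying apart from COH in every OHSS library, so their direction against COH was all but set by that choice. It is no support for the differences that, against COH, the log2 fold changes of all 7 genes kept their direction in each of 14 alternatives. Across both comparisons 8 of these values moved by at least 1 SD of the replicates (log2 CPM, pooled over the 2 groups compared), each when a library was left out. For nintedanib against OHSS, small differences changed sign: Fggy, at -0.02, was 0.0497 with scaling by library size only, 0.0071 without OHSS replicate 1 and 0.098 without nintedanib replicate 1, with a range of -0.16 to 0.098 over the libraries left out. Rassf2 was 0.018 without OHSS replicate 1 (range -0.39 to 0.018). Selenoi was 0.051 without OHSS replicate 2 and 0.24 without nintedanib replicate 2 (range -0.54 to 0.24). Apol6 was called by DESeq2 alone (log2 fold change -0.97, adjusted p = 0.0145), and ran from -1.16 to -0.78 with each library left out.

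Counts of called genes depended on the tool. In OHSS against COH edgeR called 2, and 4 with no filter on low counts, 1 with a replicate block and 0 in a fit of the 2 groups (1864 at an unadjusted p below 0.05). DESeq2 called 360 and limma voom 0 (1585 unadjusted). With each library left out edgeR called 0 to 2. It called 0 without COH replicate 1, COH replicate 2, OHSS replicate 2 or either nintedanib library, where 1078, 839, 1702, 1897 and 1898 genes had an unadjusted p below 0.05. In nintedanib against COH edgeR called 5, 2 with a replicate block and 2 in a fit of the 2 groups, DESeq2 449 and limma voom 2. With each library left out the count ran from 0 without either COH library (1260 and 862 unadjusted) to 53 without nintedanib replicate 1. It was 2 without OHSS replicate 2 and 3 without nintedanib replicate 2. In nintedanib against OHSS edgeR called 1, 2 with no filter, 0 with a replicate block (1242 unadjusted) and 0 in a fit of the 2 groups (1023 unadjusted), and DESeq2 223. With each library left out the count ran from 0 without either COH library (1060 and 1051 unadjusted) to 30 without nintedanib replicate 1, and it was 2 without OHSS replicate 1 and 2 without nintedanib replicate 2. The cause of these shifts was not tested. Where a group keeps 1 library, that library is assumed to vary like the other groups. Libraries with the same replicate number did not deviate together (r = -0.00072, 0.048 and -0.0023 across genes). Such a correlation over genes cannot show whether the numbers pair the libraries. With 2 libraries per group, small differences are not detectable.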

Other observations

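Sertad2 was 1 of 10 genes with a mean of at least 5 CPM that lay 2-fold or more below COH in both OHSS groups. These were chosen after their values were seen and are given with no test. Nkiras2, an inhibitor of NF-kappa-B signalling, was at 30.2 and 54.3 CPM in COH, 9.42 and 12.3 CPM in OHSS, and 9.82 and 7.45 CPM with nintedanib. Rbpj, the DNA-binding partner of Notch, was at 63.3 and 70.4 CPM in COH, 15.7 and 19.1 CPM in OHSS, and 21.4 and 43.8 CPM with nintedanib. Gja1, the main gap junction protein of granulosa cells, was at 1425 and 1543 CPM in COH, 367.3 and 933.6 CPM in OHSS, and 901.1 and 458.7 CPM with nintedanib. In each of these the 4 OHSS libraries lay below both COH libraries, but all 3 spread more between replicates of at least 1 group than Sertad2 did. Zfp180, a zinc finger gene, met the same rule with 20.2 and 3.13 CPM in OHSS and 24.0 and 4.24 CPM with nintedanib, against 25.3 and 42.1 CPM in COH, so its group means rest on 1 low library in each OHSS group.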
